A study of Mus musculus with 9 samples.

Results

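Labial mucosa of Tac146 mice was compared with that of B6 mice by bulk RNA sequencing. The samples were taken by their titles, which gave 6 of the 9 libraries in the study: 3 titled for Tac146 (replicates 2, 3 and 4) and 3 for B6 (replicates 1, 2 and 3). The labels give Tac146 and B6 as strain names, describe the mice as carrying different mutations and do not spell out an allele, an age or a sex for either strain. Mice of both strains were infected before the biopsy, with an agent, dose and time not given in the sources used here.

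Cell type is labelled as T cells for the Tac146 libraries and as ILC1 cells for the B6 libraries, so labelled cell type and strain cannot be told apart. ILC1 are innate lymphocytes that lack an antigen receptor. Markers in the counts were those of a whole tissue piece in both strains. A list of 28 suprabasal oral keratinocyte genes took 8.22% to 11.7% of all counts in the B6 libraries and 8.77% to 11.5% in the Tac146 libraries. Skeletal muscle genes took 4.92% to 5.86% in B6 and 3.04% to 4.75% in Tac146. The T cell receptor complex list took 0.00137% to 0.00205% in the B6 libraries and 0.000735% to 0.00103% in the Tac146 libraries. The ILC1 and NK cell list took 0.00547% to 0.00628% in B6 and 0.00549% to 0.00639% in Tac146. The libraries labelled T cells thus held a smaller share of T cell receptor counts than those labelled ILC1 cells, and below they are called by strain.

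T cells recognise antigen through a receptor of paired variable chains, alpha with beta or gamma with delta, which signals through the CD3 chains bound to it. The genes of those variable chains are assembled by the Rag1 and Rag2 recombinase, without which neither T nor B cells mature. The oral mucosa is a stratified squamous epithelium over connective tissue and muscle, and its barrier is built by keratins and by the cornified envelope, into which small proline-rich (Sprr) proteins are cross-linked. The Sprr2 genes, chitinase-like proteins and clade B serpins are known as genes that epithelia raise under stress or inflammation.

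Total expected counts per library ran from 28065745 to 40873064 in B6 and from 33085143 to 46456500 in Tac146. Tac146 replicate 4 stood apart from the rest, at 46.4 on the first principal component, which held 35% of the variance, while the other 5 libraries lay between -28.4 and 8.58. It also had the lowest share of skeletal muscle counts, 3.04%. The numbers that open the titles are 1, 2 and 3 for B6 and 8, 9 and 19 for Tac146, and the labels do not say what they stand for. The labels do not say that libraries of a strain came from separate animals, so p-values measure the spread between these libraries, which may be technical.

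Few genes differed between the strains beyond that spread. Of 16409 genes tested, 26 passed an adjusted p of 0.05 in edgeR's quasi-likelihood test (0.158% of all tested), 14 of them higher in Tac146 (0.0853%) and 12 lower (0.0731%), and these are called below. Values are in CPM, counts scaled to library size with edgeR's TMM factors, and fold changes are Tac146 over B6. Lymphocyte genes made up 3 of the called genes that were lower, the CD3 chains Cd3d and Cd3e and the delta chain constant region Trdc. Epithelial and secreted products were among those that were higher, led by Sprr2f, Lpo, Chil1 and Serpinb3c. A further set changed with a narrow spread between libraries, Atp5e, Wdfy1 and Cd59a lower and Crispld2 and Ypel2 higher.

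Of the called genes, 24 changed by over 2-fold. The libraries of the strains did not overlap in any of the 26, where 12.7% of all genes tested did not. This is a description only, since the test chose the 26 by the same separation between libraries. At an unadjusted p under 0.05, 1065 genes differed (6.49%), 484 higher (2.95%) and 581 lower (3.54%). Counts of list members at that p are to be read beside these shares. DESeq2 called 129 genes (0.726% of the 17774 with an adjusted p), which held all 26. Leaving out 1 library at a time gave 18, 8 and 8 called genes without B6 replicates 1, 2 and 3, and 14, 7 and 34 without Tac146 replicates 2, 3 and 4. Atp5e, Cd59a, Crispld2, Gm27177, Rag1 and Wdfy1 stayed called in all 6 of those fits, Nnt in 5 and Sprr2j-ps in 4.

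**Figure D1:**
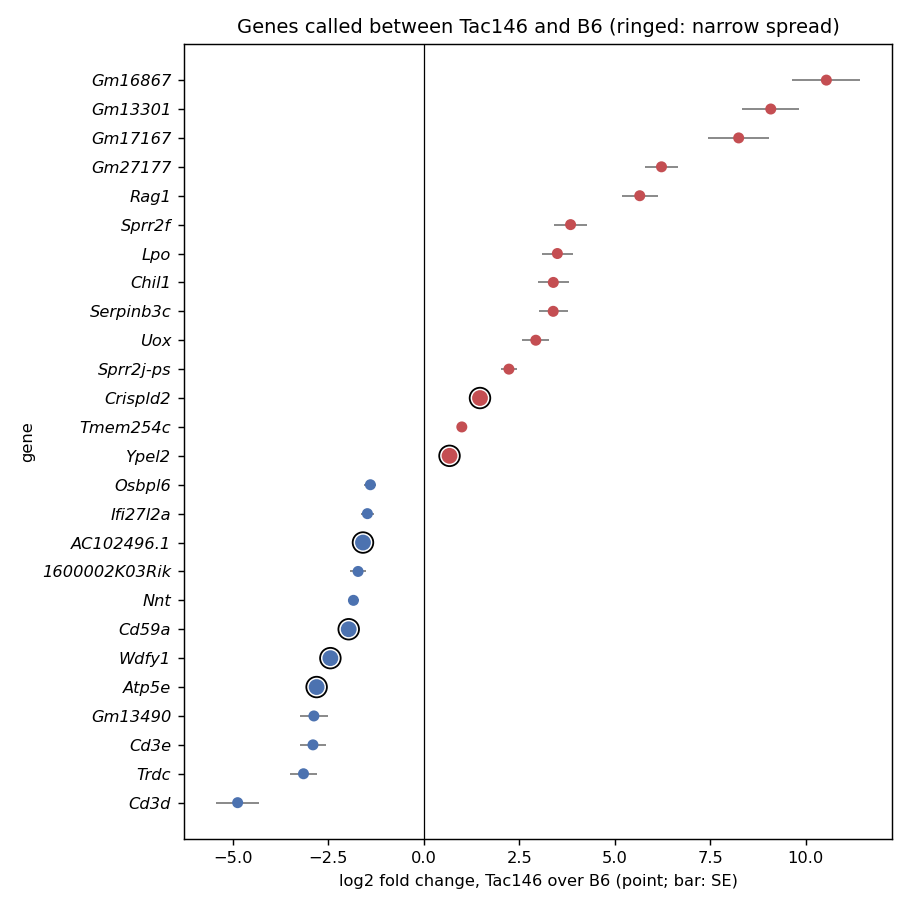
Log2 fold change (Tac146 over B6, x axis) of the 26 called genes (y axis), with bars of 1 SE, red for higher and blue for lower and a ring around genes of narrow spread. The 14 genes on the right run from Ypel2 at 0.67 to Gm16867 at 10.54 and the 12 on the left from Osbpl6 at -1.40 to Cd3d at -4.88, and the positions of Gm16867, Gm13301 and Gm17167, which had no count in B6, depend on the prior count of the fit.

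The T cell receptor complex was lower in Tac146 for most of its members. Of 10 tested members, 3 were called, all lower (30%, beside 0.158% of all genes tested). At an unadjusted p under 0.05, 7 were lower with no overlap between strains. Of all genes, 3.54% were lower at that p and 6.94% were lower without overlap. The median log2 fold change of the 10 was -2.57, beside -0.001 over all genes tested. In a bulk sample, fewer T cells and less receptor RNA per cell cannot be told apart.

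Cd3d (chromosome 9, 44981786 to 44987339 in GRCm38) encodes the delta chain of CD3. The B6 libraries held 41, 19 and 23 counts of it and the Tac146 libraries 2, 1 and 0. With 83 counts against 3, B6 was 34.0 times higher after scaling, with an exact 95% interval of 11.3 to 168 that covers counting error only (edgeR log2 fold change -4.88, SE 0.57, adjusted p = 0.0311). The neighbouring Cd3e (chromosome 9, 44998740 to 45009627), the epsilon chain, was at 1.70, 0.984 and 1.19 CPM in B6 and at 0.177, 0.215 and 0.131 CPM in Tac146. Every Tac146 library lay below every B6 library, 7.5-fold in the fit (edgeR log2 fold change -2.91 with SE 0.35, adjusted p = 0.0331).

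Trdc (chromosome 14, 54142851 to 54148868), the constant region of the delta chain of gamma delta receptors, was at 1.51, 0.914 and 1.06 CPM in B6. In Tac146 it was at 0.132, 0.0923 and 0.153 CPM, again with no overlap (edgeR log2 fold change -3.16 with SE 0.35, adjusted p = 0.0311). These 3 calls rest on low counts, at most 71 in a library. They were all lost without B6 replicate 1, 2 or 3 and without Tac146 replicate 2 or 3, with adjusted p up to 0.158 for Cd3d and 0.122 for Trdc and Cd3e, and their log2 fold changes stayed at or below -2.64 in every such fit. The log2 fold change of Cd3d was -5.64 without Tac146 replicate 2 and -4.28 without Tac146 replicate 4. Without Tac146 replicate 4, Cd3d and Trdc stayed called (adjusted p = 0.0315 and 0.043) and Cd3e did not (adjusted p = 0.0681).

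The other receptor chains split in 2 ways. Cd3g, the gamma chain of CD3, was at 2.28 ± 0.213 CPM in B6 and 0.484 ± 0.212 CPM in Tac146 (SD, n = 3 each) with an edgeR adjusted p of 0.0649. Trac, the alpha chain constant region, was at 0.60, 0.316 and 0.529 CPM in B6 and at 0.0221, 0.0616 and 0.0875 CPM in Tac146 (log2 fold change -3.04, adjusted p = 0.16). Tcrg-C1, a gamma chain constant region, had 50, 25 and 13 counts in B6 and 0, 1 and 5 in Tac146, with a log2 fold change of -4.04 (adjusted p = 0.191). Replicate 4 thus held 5 of its 6 Tac146 counts, and the value was -5.70 without that library and -3.43 without Tac146 replicate 2. Cd247, the zeta chain, had a log2 fold change of -1.51 (adjusted p = 0.296). None of these 4 passed the threshold in edgeR, though their strains did not overlap, and DESeq2 called all 4.

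The beta chain constant regions did not follow. Trbc2 was at 7.68, 6.43 and 5.26 CPM in B6 and at 7.0, 5.02 and 5.84 CPM in Tac146, with a log2 fold change of -0.12 (SE 0.18, edgeR adjusted p = 0.886). Trbc1 had a log2 fold change of 0.03 (SE 0.33) and Tcrg-C4 one of -0.51 (SE 0.40), and their libraries overlapped. Trbc2 held the most counts of the list, so the summed level of the list differed less than the CD3 genes did. Tcrg-C2 did not pass the filter on low counts, with 31 counts over the B6 libraries and 1 over the Tac146 libraries.

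**Figure D2:**
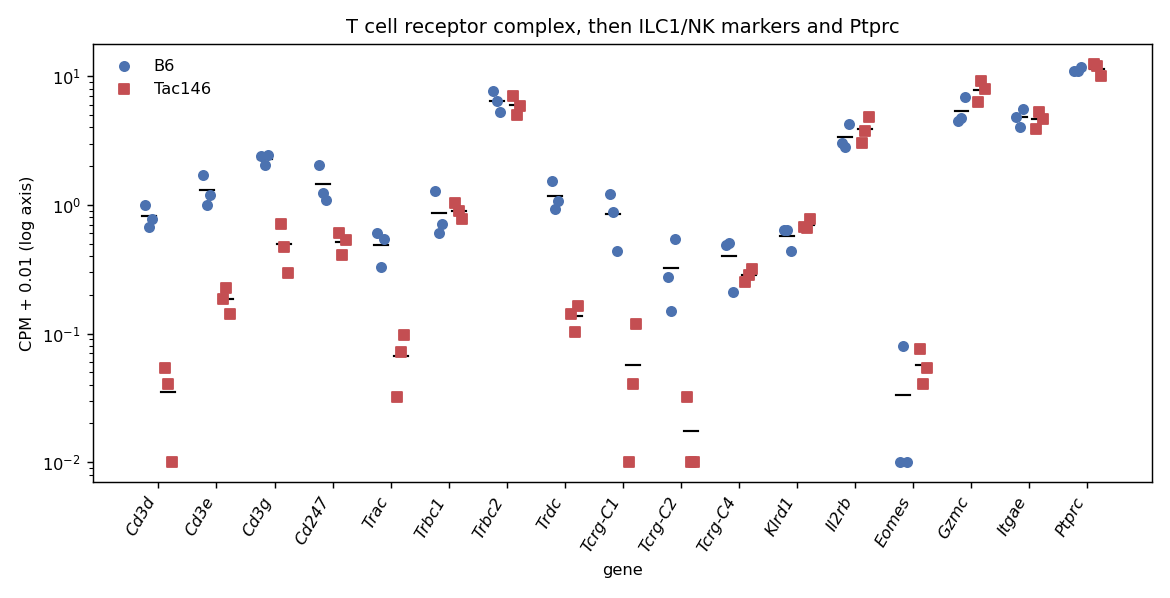
CPM + 0.01 (y axis, log scale) of T cell receptor complex genes, then ILC1 and NK cell markers and Ptprc (x axis), with 1 point per library, circles for B6, squares for Tac146 and a line at each mean. The squares lie below the circles for the CD3 genes, Trac, Trdc, Tcrg-C1 and Tcrg-C2 and overlap them for Trbc1, Trbc2, Klrd1, Il2rb and Ptprc.

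T cell coreceptors and signalling genes were lower for some members without passing the test. Of 20 tested, edgeR called 0 and DESeq2 called 2 (Cd4 and Cd6). At an unadjusted p under 0.05, 9 were lower with no overlap, where 3.54% and 6.94% of all genes were. Among the 9 were the coreceptor Cd4 and Foxp3, the transcription factor of regulatory T cells, which are named after their values were seen. Cd4 was at 1.18, 0.984 and 1.16 CPM in B6 and at 0.397, 0.462 and 0.153 CPM in Tac146 (log2 fold change -1.74, edgeR adjusted p = 0.321). Foxp3 was at 0.511 ± 0.110 CPM in B6 and 0.101 ± 0.0362 CPM in Tac146 (SD, n = 3 each, adjusted p = 0.167). The members of the list with the most counts, Thy1 and Bcl11b, which keratinocytes, fibroblasts or other cells can also express, had log2 fold changes of -0.29 (SE 0.14) and 0.13 (SE 0.11).

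Markers of other lymphocytes and of leukocytes as a whole gave smaller differences. Of 26 tested ILC1 and NK cell markers, edgeR and DESeq2 each called 0, 1 was higher and 0 lower at an unadjusted p under 0.05, and the median log2 fold change was 0.09, or -0.001 without Tac146 replicate 4. Gzmc, a granzyme, was at 4.49, 4.71 and 6.88 CPM in B6 and at 6.25, 9.20 and 7.99 CPM in Tac146 (edgeR adjusted p = 0.75). Itga1, the alpha1 integrin of tissue-resident lymphocytes and of stromal cells, had a log2 fold change of 0.04 (SE 0.11). Among 20 pan-leukocyte genes, edgeR and DESeq2 called 0, 0 passed an unadjusted p of 0.05 and the median was 0.02 (0.11 without Tac146 replicate 4), with Ptprc (CD45) at 11.3 ± 0.529 CPM in B6 and 11.5 ± 1.30 CPM in Tac146 (SD, n = 3 each).

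The ILC2 and ILC3 list (11 tested, median -0.02), the B and plasma cell list (7 tested, median -0.26) and the Gimap GTPases (7 tested, median -0.29), which are abundant in resting lymphocytes, also had 0 calls by edgeR or DESeq2. Each had 1 member lower and 0 higher at an unadjusted p under 0.05, where 3.54% of all genes were lower and 2.95% higher. Without Tac146 replicate 4 the medians were -0.04, -0.03 and -0.11. The filter on low counts left 7 of 22 B and plasma cell genes, and the rest were not compared. Of those 7, 2 were lower without overlap (28.6%, beside 6.94% of all genes). So were 0 of the tested ILC2 and ILC3 genes and 1 of the Gimap genes (14.3%). Il2rg, the common gamma chain of cytokine receptors, was at 5.18, 5.20 and 4.8 CPM in B6 and at 5.34, 4.03 and 3.63 CPM in Tac146 (log2 fold change -0.22, SE 0.17, edgeR adjusted p = 0.792). Over all lymphocyte lists, counting each gene once, 4 of 127 tested genes were called (3.15%, beside 0.158% of all genes tested). Cd3d, Cd3e and Trdc were lower and Rag1 was higher. Without B6 replicate 1, 2 or 3 or Tac146 replicate 2 or 3 that count was 1, which was Rag1, and without Tac146 replicate 4 it was 4.

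Rag1 transcripts were present in Tac146 and nearly absent in B6. Rag1 (chromosome 2, 101638282 to 101649501), a protein-coding gene, had 1, 0 and 2 counts in B6 replicates 1, 2 and 3 and 71, 59 and 75 in Tac146 replicates 2, 3 and 4. The ratio of the summed counts after scaling was 55.6, with an exact 95% counting interval of 18.7 to 272 (edgeR adjusted p = 0.0071, and 0.0496 at the highest with a library left out). Its fitted log2 fold change was 5.65, or 6.59 without B6 replicate 3. Rag2, its partner and neighbour on the chromosome, had 0 counts in all 6 libraries, which allows up to 3 counts in each. Dntt, the terminal transferase that adds bases at receptor junctions, was also at 0 in all 6. The other 7 tested genes of the recombination list, which join DNA ends in every cell type, had log2 fold changes between -0.35 and 0.06 and 0 calls by edgeR or DESeq2. The counts do not show which part of Rag1 the reads came from.

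Called genes were also counted by their distance from Rag1. Within 10 Mb of Rag1, with Rag1 itself left out, 1 of 85 tested genes was called (1.18%), beside 0.159% of all genes with a position, and 12 did not overlap (14.1%, beside 12.7%). Within 5 Mb the values were 1 of 36 called (2.78%) and 9 without overlap (25%). The called gene was Cd59a, 2.46 Mb away. Chromosome 2 held 5 of the 26 called genes, Rag1, Cd59a, Atp5e, Osbpl6 and Gm13490, among 1253 tested, and Atp5e lay 72.8 Mb from Rag1. Cd59b, next to Cd59a, was at 0.786 ± 0.0114 CPM in B6 and 0.114 ± 0.0659 CPM in Tac146 (SD, n = 3 each) with an edgeR adjusted p of 0.0909.

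In the epithelium, the Sprr2 genes were higher in Tac146 almost throughout the family. Of 12 tested members, Sprr2f and Sprr2j-ps were called, both higher (16.7%, beside 0.158% of all genes tested). At an unadjusted p under 0.05, 11 were higher with no overlap, where 2.95% and 5.81% of all genes were. DESeq2 called 10, and the median log2 fold change was 2.48. The promoters of 3 members are shown because Sprr2f and Sprr2i had some of the largest differences and Sprr2k little, and that of the called serpin Serpinb3c is shown for comparison. Sequences are from RefSeq on GRCm38.p6, from 250 bases before to 50 bases after the start of the gene, and capitals mark matches on either strand to TGANTCA (an AP-1 type motif), ATGCAAAT (an octamer), TTCNNNGAA (of a STAT type) or TATAAA (the core promoter box). The motifs may overlap each other.
Sprr2f, chr3:92364937-92365236, plus strand: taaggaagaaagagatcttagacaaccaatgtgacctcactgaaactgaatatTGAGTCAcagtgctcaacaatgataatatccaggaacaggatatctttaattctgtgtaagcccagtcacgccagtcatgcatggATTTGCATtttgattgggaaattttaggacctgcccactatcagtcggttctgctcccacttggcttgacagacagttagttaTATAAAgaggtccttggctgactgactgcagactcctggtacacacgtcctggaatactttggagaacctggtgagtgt
Sprr2i, chr3:92407741-92408040, plus strand: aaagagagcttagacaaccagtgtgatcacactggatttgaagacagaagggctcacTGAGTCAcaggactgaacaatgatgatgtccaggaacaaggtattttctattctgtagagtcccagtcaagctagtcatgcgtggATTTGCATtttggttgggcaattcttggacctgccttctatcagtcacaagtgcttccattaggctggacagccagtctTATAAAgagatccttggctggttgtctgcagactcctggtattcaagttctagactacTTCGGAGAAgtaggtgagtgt
Sprr2k, chr3:92432332-92432631, plus strand: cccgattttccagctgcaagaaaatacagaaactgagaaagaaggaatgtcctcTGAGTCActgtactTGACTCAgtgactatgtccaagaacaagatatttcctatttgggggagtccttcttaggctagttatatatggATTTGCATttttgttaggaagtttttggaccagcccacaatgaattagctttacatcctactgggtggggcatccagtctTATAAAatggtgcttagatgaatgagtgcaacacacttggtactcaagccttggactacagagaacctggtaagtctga
Serpinb3c, chr1:107278322-107278621, minus strand: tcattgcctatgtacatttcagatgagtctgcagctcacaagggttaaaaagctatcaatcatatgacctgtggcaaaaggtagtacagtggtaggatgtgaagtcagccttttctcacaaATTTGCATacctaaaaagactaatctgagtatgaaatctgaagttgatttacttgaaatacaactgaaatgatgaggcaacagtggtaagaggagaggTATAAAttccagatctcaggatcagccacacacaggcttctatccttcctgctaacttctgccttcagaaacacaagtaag

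TGANTCA, ATGCAAAT and TATAAA were all present in 7 of the 10 Sprr2 promoters in the table (Sprr2b, Sprr2d, Sprr2e, Sprr2f, Sprr2h, Sprr2i and Sprr2k). Among 32851 mouse promoters of the same length, 7.81% held TGANTCA, 1.74% held ATGCAAAT and 13.6% held TATAAA. In Sprr2f they began 197, 112 and 29 bases before the start, and in Sprr2k, whose strains overlapped, 196 (with another copy at 182), 109 and 29 bases before it. TTCNNNGAA was present in Sprr2a3 and Sprr2i, and in 8.3% of all promoters. Serpinb3c held ATGCAAAT 129 bases and TATAAA 31 bases before the start. Without gaps, the 7 Sprr2 promoters named above were identical at 27.7% (Sprr2f and Sprr2k) to 88.0% (Sprr2d and Sprr2e) of positions. Sprr2f and Sprr2i were identical at 41.7%, Sprr2h and Sprr2k at 67.3% and Sprr2e and Sprr2i at 72.3%. A shift between 2 promoters lowers such a value. TGANTCA, for example, began 197 bases before the start in Sprr2f and 193 in Sprr2i. A match is a run of letters and not a shown binding site.

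Sprr2f (chromosome 3, 92365187 to 92366442) was at 2.54, 0.562 and 1.69 CPM in B6 and at 17.7, 21.2 and 32.3 CPM in Tac146. The lowest Tac146 library was well above the highest B6 library, and the fitted change was 14.3-fold (edgeR log2 fold change 3.84 with SE 0.44, adjusted p = 0.0311). Sprr2j-ps, which the annotation calls protein-coding in spite of its pseudogene name, was at 5.06, 3.02 and 4.83 CPM in B6 and at 17.1, 23.1 and 20.7 CPM in Tac146 (edgeR log2 fold change 2.23 with SE 0.20, adjusted p = 0.0121). Both varied less between the Tac146 libraries than between the B6 libraries on the log scale.

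Sprr2i was at 11.7, 1.97 and 7.41 CPM in B6 and at 77.1, 107 and 113 CPM in Tac146, with a log2 fold change of 3.79 and an adjusted p of 0.0538, just outside the threshold. Sprr2a1 (adjusted p = 0.0512), Sprr2g (0.0624) and Sprr2a2 (0.0804) were also close to it in edgeR. Sprr2d and Sprr2e had the largest log2 fold changes of the family, 3.95 and 3.91, with a wide spread in B6, where Sprr2d was at 8.59, 0.387 and 3.41 CPM. Within B6, replicate 2 had the lowest value of each of the 11 members that did not overlap.

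Sprr2k was at 19.8, 24.4 and 31.0 CPM in B6 and at 23.6, 31.5 and 24.7 CPM in Tac146. Its strains overlapped, with a log2 fold change of 0.08 (SE 0.18, edgeR adjusted p = 0.918). Most Sprr2 counts came from Sprr2a2, at 2108, 1287 and 2003 CPM in B6 and at 5998, 5923 and 11321 CPM in Tac146. In the annotated transcripts, 96.5% of the 50-base stretches of Sprr2a2 also occur in another gene, so Sprr2a1, Sprr2a2 and Sprr2a3 are uncertain one by one. Summed, these 3 went from 1921 ± 469 to 8142 ± 3245 CPM (SD, n = 3 each), and the other 9 together went from 51.0 ± 16.3 to 302.1 ± 78.8 CPM. Sprr2f shares 0.714% of its 50-base stretches and Sprr2i 12.5%.

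**Figure D3:**
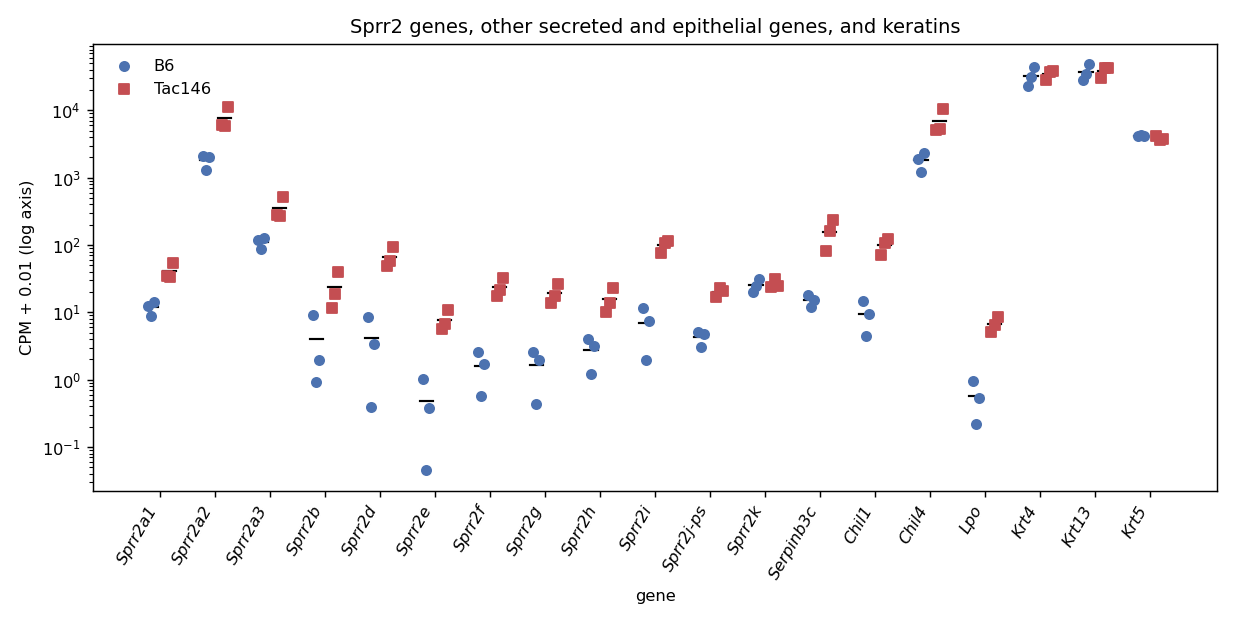
CPM + 0.01 (y axis, log scale) of the 12 Sprr2 genes, of Serpinb3c, Chil1, Chil4 and Lpo, and of 3 keratins (x axis), with 1 point per library, circles for B6, squares for Tac146 and a line at each mean. The squares lie above the circles for 11 Sprr2 genes, Serpinb3c, Chil1, Chil4 and Lpo, and overlap them for Sprr2k, Krt4 and Krt13. For Krt5 the squares lie just below the circles.

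Other called epithelial and secreted products shared this pattern of high Tac146 libraries without overlap. Serpinb3c (chromosome 1, 107271201 to 107278371), a clade B serpin and thus a protease inhibitor of squamous epithelium, was at 18.1, 11.8 and 15.3 CPM in B6 and at 80.3, 160.3 and 234 CPM in Tac146. It rose 10.5-fold (SE 0.38 on the log2 scale, edgeR adjusted p = 0.0311), and 12.2% of its 50-base stretches occur in related serpins. Chil1 (chromosome 1, 134182176 to 134190181), a chitinase-like secreted lectin, was at 14.7, 4.43 and 9.39 CPM in B6 and at 71.1, 106.9 and 124 CPM in Tac146 (log2 fold change 3.39, SE 0.41, adjusted p = 0.0331).

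Lpo (chromosome 11, 87806428 to 87828289) encodes lactoperoxidase, an antimicrobial enzyme of saliva and mucosal fluids. It was at 0.960, 0.211 and 0.529 CPM in B6 and at 5.17, 6.59 and 8.49 CPM in Tac146 (edgeR log2 fold change 3.50 with SE 0.41, adjusted p = 0.0331). Uox, urate oxidase, was at 0.336, 0.351 and 0.529 CPM in B6 and at 2.08, 2.83 and 4.33 CPM in Tac146 (log2 fold change 2.93, SE 0.36, adjusted p = 0.0331). Among 12 tested genes of the salivary and mucous gland list, Lpo was the 1 called (8.33%, beside 0.158% of all genes tested). DESeq2 called 2 higher and 1 lower. At an unadjusted p under 0.05, 3 were higher and 1 lower, and the median log2 fold change was -0.015. Aqp5, the water channel of serous gland cells, was chosen after its values were seen and was not called. It was at 5.50 ± 1.89 CPM in B6 and 1.56 ± 0.647 CPM in Tac146 (SD, n = 3 each, edgeR adjusted p = 0.263).

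These epithelial calls varied with the libraries included. Of 280 tested genes on the epithelial lists, 4 were called (1.43%, beside 0.158% of all genes tested). These were Sprr2f, Sprr2j-ps, Serpinb3c and Lpo, all higher. The count was 4, 2 and 0 without B6 replicates 1, 2 and 3. Without Tac146 replicates 2, 3 and 4 it was 3, 0 and 9. DESeq2 called 25 epithelial genes, 21 higher and 4 lower, where it called 0.726% of all genes with an adjusted p. The adjusted p reached 0.0644 for Sprr2j-ps, 0.125 for Sprr2f, 0.148 for Lpo, 0.155 for Chil1 and 0.216 for Serpinb3c with a library left out, and their log2 fold changes stayed at or above 2.03. Lpo had a log2 fold change of 4.16 without B6 replicate 1. Without Tac146 replicate 4, Serpinb3c had a log2 fold change of 2.98 (adjusted p = 0.0117) and Sprr2f one of 3.54 (adjusted p = 0.0203).

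Genes of the antimicrobial and interleukin 17 response were mostly above B6 in Tac146 without a call. Of 23 tested, edgeR called 0 and DESeq2 called 4, all higher. At an unadjusted p under 0.05, 10 were higher and 1 lower, where 2.95% of all genes were higher and 3.54% lower. The members named here were chosen after their values were seen, apart from S100a8, S100a9, Slpi and Chil4. Saa1, an acute phase protein, was at 0.984, 0.211 and 0.364 CPM in B6 and at 3.91, 6.34 and 4.88 CPM in Tac146 (log2 fold change 3.18, edgeR adjusted p = 0.0649). Nfkbiz, a transcriptional cofactor downstream of interleukin 17, was at 14.3 ± 1.41 CPM in B6 and 24.3 ± 3.65 CPM in Tac146 (SD, n = 3 each, adjusted p = 0.167). Slpi, a secreted protease inhibitor and the member with the most counts, had a log2 fold change of 0.30 (SE 0.20).

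S100a8 and S100a9, calgranulins of neutrophils and stressed keratinocytes, were at 10.8, 1.93 and 2.98 CPM and at 9.5, 0.738 and 3.24 CPM in the B6 libraries. In Tac146 they were at 10.8, 20.3 and 59.3 CPM and at 20.03, 34.9 and 93.7 CPM, highest in replicate 4. Neither passed the test (edgeR adjusted p = 0.633 and 0.432), and the strains overlapped for S100a8 and not for S100a9. Their log2 fold changes were 2.48 and 3.41, or 1.51 and 2.54 without Tac146 replicate 4 and 3.61 and 4.62 without B6 replicate 1. Neutrophil markers as a list took 0.00179% to 0.00346% of counts in B6 and 0.00516% to 0.0179% in Tac146. Their median log2 fold change was 0.91 over 7 tested members (0.53 without Tac146 replicate 4), with 0 called by edgeR and 1 by DESeq2. At an unadjusted p under 0.05, 4 of the 7 were higher and 0 lower, where 2.95% of all genes were higher and 3.54% lower. Without overlap, 3 were higher (42.9%, beside 5.81% of all genes). The part of neutrophils in the higher epithelial genes was not tested.

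Chil4, a chitinase-like protein raised in type 2 responses, was at 1908, 1219 and 2296 CPM in B6. In Tac146 it was at 5108, 5261 and 10406 CPM, without overlap, yet with an edgeR adjusted p of 0.176 (log2 fold change 1.94, SE 0.34). Of 18 tested genes of the type 2 and alarmin list, edgeR called 0 and DESeq2 called 1. At an unadjusted p under 0.05, 4 were higher and 0 lower, where 2.95% of all genes were higher and 3.54% lower. The 4 were Il4ra, Chil3, Chil4 and Alox15, chosen after their values were seen. Arg1, also on that list, was at 464 ± 154 CPM in B6 and 457 ± 108 CPM in Tac146 (SD, n = 3 each). Among 25 serpins, gasdermins and protease inhibitors, Serpinb3c was the 1 called (4%, beside 0.158% of all genes tested). At an unadjusted p under 0.05, 7 were higher, beside 2.95% of all genes. They included Gsdmc2, a pore-forming gasdermin, at 8.65 ± 1.73 CPM against 23.9 ± 9.5 CPM (adjusted p = 0.214). The 1 member lower at that p was Spink7, an epithelial protease inhibitor chosen after its values were seen, at 2.35 ± 0.804 CPM in B6 and 0.846 ± 0.336 CPM in Tac146 without overlap (SD, n = 3 each, log2 fold change -1.45, edgeR adjusted p = 0.442), and DESeq2 called it and 4 higher members.

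The structural genes of the epithelium were close to each other in the 2 strains. Krt13, the main keratin of the suprabasal oral layers, was at 28450, 34552 and 48293 CPM in B6 and at 30448, 42357 and 42651 CPM in Tac146 (log2 fold change 0.05, SE 0.27). Krt5, a basal keratin, was at 4146, 4257 and 4130 CPM in B6 and at 4114, 3626 and 3754 CPM in Tac146 (log2 fold change -0.12, SE 0.12). Its Tac146 libraries were thus lower without overlap, by a small margin. EdgeR and DESeq2 called 0 of 20 basal and 0 of 28 suprabasal keratinocyte genes, with 1 higher and 1 lower in each list at an unadjusted p under 0.05. Without overlap, 2 basal genes were higher and 2 lower (20%), and 3 suprabasal genes were higher and 1 lower (14.3%), beside 12.7% of all genes. Of 49 other cornified envelope genes, edgeR called 0 and DESeq2 called 1, 2 were higher and 0 lower at an unadjusted p under 0.05, and the median log2 fold change was 0.14, or 0.02 without Tac146 replicate 4.

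Sebaceous gland genes had no call in edgeR. Of 21 tested, edgeR called 0 and DESeq2 called 2. At an unadjusted p under 0.05, 8 were lower and 0 higher, where 3.54% of all genes were lower and 2.95% higher. The median log2 fold change was -0.41 (-0.27 without Tac146 replicate 4). Awat1, a wax synthase of sebocytes chosen after its values were seen, was at 117, 56.2 and 56.7 CPM in B6 and at 38.8, 16.9 and 28.1 CPM in Tac146 (edgeR adjusted p = 0.457). Hair follicle genes (32 tested) had 0 calls by edgeR or DESeq2 and 0 at an unadjusted p under 0.05, and their median moved from 0.16 to -0.40 without Tac146 replicate 4, in which Krt71, an inner root sheath keratin, was at 1224 CPM beside 310.0 and 673 CPM in the other 2 Tac146 libraries.

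Interferon-stimulated genes were lower in Tac146 as a list, with 1 call. All 46 tested genes of the type I interferon response had a log2 fold change below 0, with a median of -0.59, and 26 were lower at an unadjusted p under 0.05, where 3.54% of all genes were. Ifi27l2a (chromosome 12, 103442167 to 103443680), an interferon-induced membrane protein, was at 46.6, 68.5 and 68.4 CPM in B6 and at 20.9, 25.4 and 19.4 CPM in Tac146. The difference was 2.79-fold (edgeR log2 fold change -1.48 with SE 0.17, adjusted p = 0.0311). With a library left out, it stayed called in 2 of 6 fits and its adjusted p reached 0.183. DESeq2 called 7 genes of the list, all lower.

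The interferon levels varied widely within B6. Isg15, a ubiquitin-like modifier chosen after its values were seen, was at 13.0, 32.0 and 61.5 CPM in B6 and at 9.60, 9.57 and 18.4 CPM in Tac146. B6 replicate 1 thus lay below the highest Tac146 library, and 11 of the 46 genes did not overlap (23.9%, beside 6.94% of all genes that were lower without overlap). Irf7, a transcription factor of the response chosen in the same way, was at 13.2, 22.2 and 31.7 CPM in B6 and at 7.09, 7.05 and 10.3 CPM in Tac146 (edgeR adjusted p = 0.308).

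Of 34 tested genes of the interferon gamma response, edgeR called 0 and DESeq2 called 4, all lower. At an unadjusted p under 0.05, 16 were lower and 0 higher, where 3.54% of all genes were lower and 2.95% higher. The median log2 fold change was -0.36. Cxcl9, a chemokine that draws T cells and was chosen after its values were seen, was at 2.59, 4.64 and 7.08 CPM in B6 and at 1.24, 0.923 and 1.66 CPM in Tac146 (edgeR adjusted p = 0.279). MHC class I presentation genes (18 tested) had a median of -0.15, with H2-K1 at -0.12 (SE 0.09) and H2-D1 at -0.13 (SE 0.10). MHC class II genes (13 tested) had a median of 0.18, or 0.28 without Tac146 replicate 4. EdgeR called 0 in either MHC list, DESeq2 called 1 and 0, and at an unadjusted p under 0.05 there were 3 lower in class I and 1 higher in class II.

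**Figure D4:**
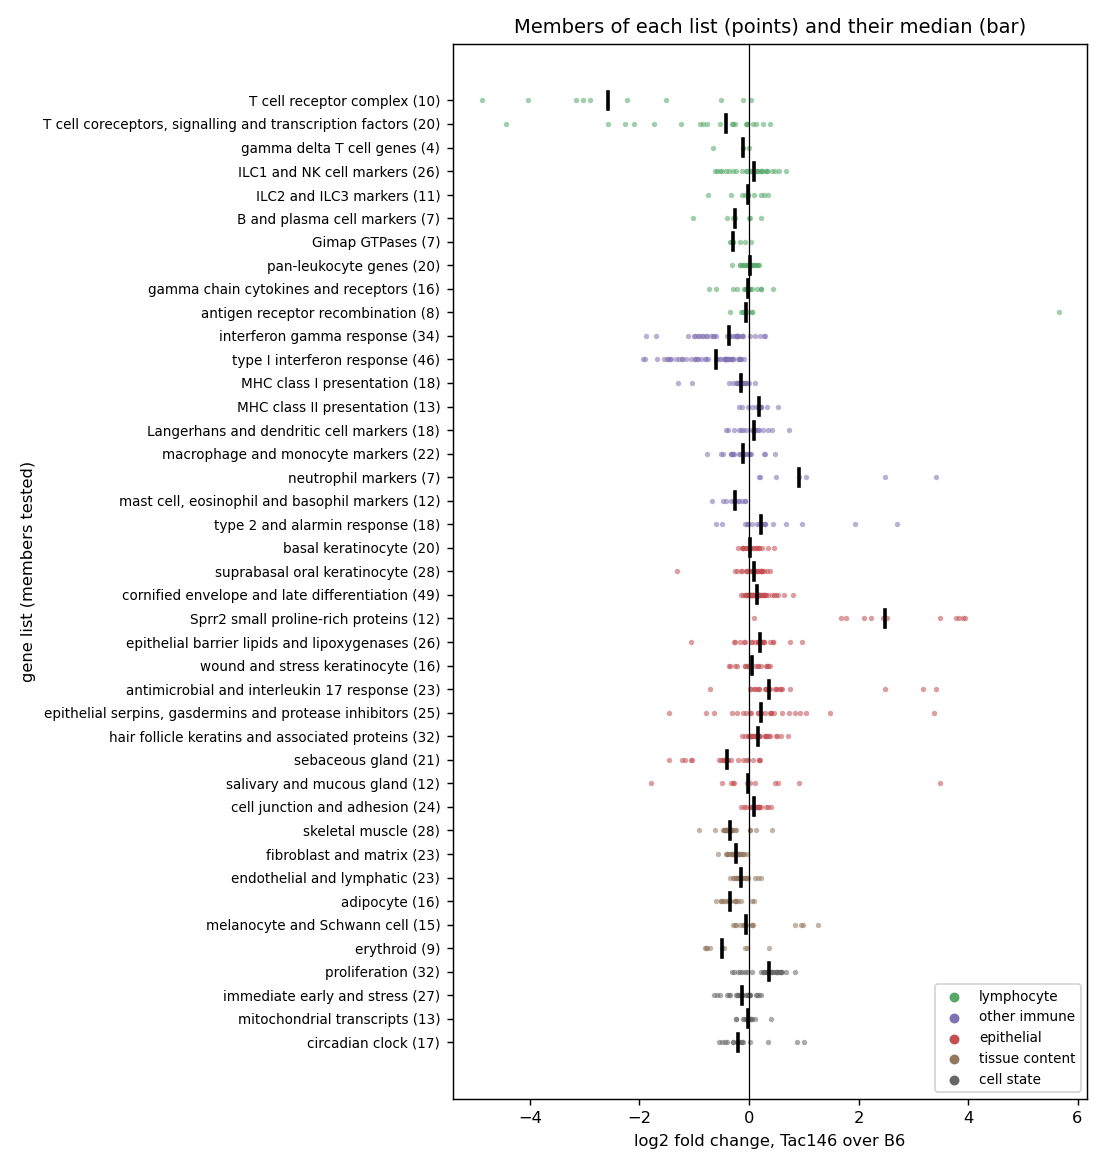
Log2 fold change (Tac146 over B6, x axis) of the tested members of 41 gene lists (y axis, number tested in brackets), with 1 point per gene, a black bar at the median and a colour for each class of list. The medians of the Sprr2 genes (2.48) and the T cell receptor complex (-2.57) lie farthest from 0, and those of the pan-leukocyte (0.02) and basal keratinocyte genes (0.02) close to it.

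Lists for other tissue in the biopsy mostly had medians a little below 0. Skeletal muscle (28 tested) had a median log2 fold change of -0.35, or -0.20 without Tac146 replicate 4, fibroblast and matrix genes (23 tested) -0.24, or -0.06 without it, and adipocyte genes (16 tested) -0.34, or -0.14 without it. Of the 28 muscle genes, 16 were lower without overlap (57.1%, beside 6.94% of all genes) and 5 at an unadjusted p under 0.05. EdgeR called 0 of 114 genes on the tissue lists and DESeq2 called 4, all lower, and 15 were lower and 0 higher at an unadjusted p under 0.05. Acta1, skeletal muscle actin, was at 8031, 6863 and 7004 CPM in B6 and at 6080, 6053 and 4173 CPM in Tac146 (edgeR adjusted p = 0.767). Hbb-bs, a haemoglobin chain, was at 695, 613 and 394 CPM in B6 and at 250.3, 448 and 280.0 CPM in Tac146, so its strains overlapped (adjusted p = 0.681). The part of tissue content in the interferon, sebaceous and T cell receptor genes was not tested.

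Single genes with a narrow spread between libraries were counted apart, as a description, since the spread is part of the test. A called gene was counted when its 3 libraries in each strain lay within 0.4 on the log2(CPM + 0.1) scale, its strains did not overlap and the higher strain had a mean of 1 CPM or more. There were 6 such genes, Wdfy1, Ypel2, Crispld2, AC102496.1, Cd59a and Atp5e. Among the 8542 genes with a spread that narrow in both strains and that level, the share called was 0.0702%, and it was 0.254% among the other 7867. The median of the wider of the 2 ranges was 0.666 for the called genes and 0.379 over all genes tested. Just inside the limit lay Atp5e at 0.377 and Cd59a at 0.359, and just outside it Tmem254c at 0.416 and Osbpl6 at 0.473.

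Wdfy1 (chromosome 1, 79702262 to 79776143), a lipid-binding protein of endosomes that takes part in Toll-like receptor signalling, had the smallest p of all genes tested. It was at 27.1, 27.8 and 27.0 CPM in B6 and at 4.86, 5.39 and 4.77 CPM in Tac146. Neither strain varied by more than 0.172 on the log2 scale, and the difference was 5.47-fold (edgeR log2 fold change -2.45 with SE 0.09, adjusted p = 8.95e-05). Atp5e (chromosome 2, 174461072 to 174464105), the epsilon subunit of the mitochondrial ATP synthase, was at 259, 199 and 211 CPM in B6 and at 30.8, 35.3 and 29.1 CPM in Tac146. The difference was 7.02-fold (edgeR log2 fold change -2.81 with SE 0.13, adjusted p = 0.000285).

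Cd59a (chromosome 2, 104095801 to 104115354), an inhibitor of the complement membrane attack complex, was at 37.9, 36.5 and 35.3 CPM in B6 and at 8.79, 10.8 and 8.42 CPM in Tac146. Tac146 was lower by a factor of 3.92 (edgeR log2 fold change -1.97 with SE 0.11, adjusted p = 0.000883), and 3.87% of its 50-base stretches occur in Cd59b. AC102496.1, a long noncoding RNA on chromosome 18, was at 4.76 ± 0.507 CPM in B6 and 1.58 ± 0.151 CPM in Tac146 (SD, n = 3 each, adjusted p = 0.0232). It shares 44.7% of its 50-base stretches with other genes, and its level is uncertain for that reason.

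Crispld2 (chromosome 8, 119992438 to 120052793), a secreted protein that binds lipopolysaccharide, rose from 29.7, 29.1 and 32.8 CPM in B6 to 76.5, 86.4 and 90.8 CPM in Tac146. The change was 2.77-fold (edgeR log2 fold change 1.47 with SE 0.09, adjusted p = 0.00156). Ypel2, a small zinc-binding protein, had the smallest change of the called genes, from 15.4 ± 0.675 to 24.6 ± 1.75 CPM (SD, n = 3 each, 1.59-fold, adjusted p = 0.0449). It lost its call in each of the 6 fits with a library left out (adjusted p 0.0681 to 0.311), with a log2 fold change of at least 0.62.

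**Figure D5:**
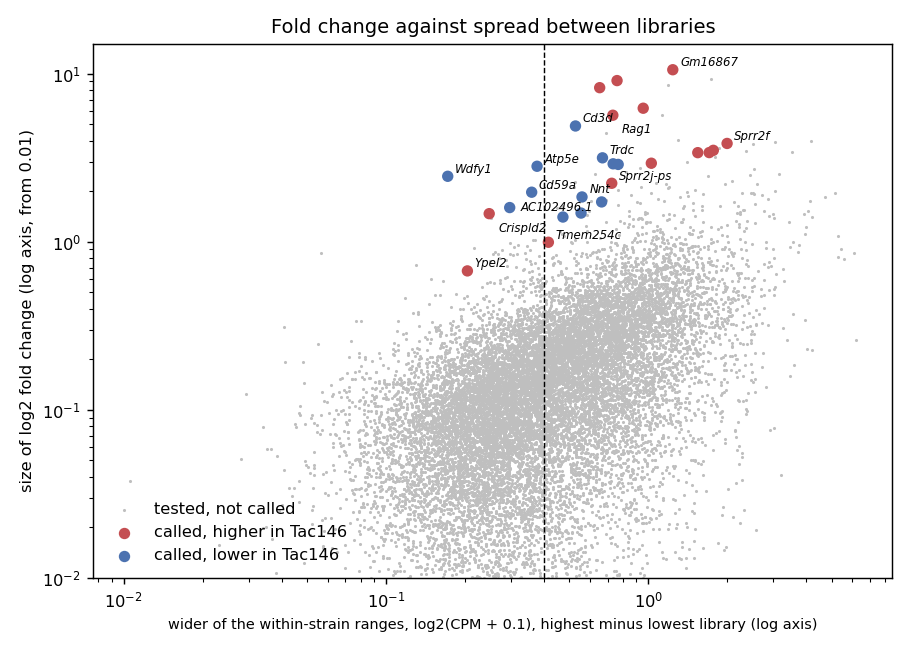
Size of the log2 fold change (y axis, log scale, from 0.01) against the wider of the 2 within-strain ranges on the log2(CPM + 0.1) scale (x axis, log scale) for all genes tested, in grey, with called genes in red (higher) and blue (lower) and a dashed line at 0.4. The 6 called genes left of the line include Wdfy1 at a range of 0.172, and Sprr2f lies farthest right of the called genes, at 2.00.

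Nnt (chromosome 13, 119335448 to 119408997), the mitochondrial transhydrogenase that makes NADPH, lay outside the limit because its Tac146 libraries varied more. It was at 98.6, 99.7 and 91.2 CPM in B6 and at 28.4, 31.1 and 21.1 CPM in Tac146, lower by a factor of 3.60 (edgeR log2 fold change -1.85 with SE 0.14, adjusted p = 0.00438). Nnt is known to carry a deletion in the C57BL/6J substrain, and the labels give B6 without a substrain. B6 had the higher Nnt level here, and the Nnt allele of either strain was not tested. Osbpl6, an oxysterol-binding protein relative, was at 6.29, 6.15 and 6.68 CPM in B6 and at 2.36, 2.86 and 2.04 CPM in Tac146 (log2 fold change -1.40, SE 0.16, adjusted p = 0.0311). The other called genes that were lower were the protein-coding 1600002K03Rik (log2 fold change -1.72) and the long noncoding RNA Gm13490 (-2.88).

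The remaining called genes belong to groups of near-identical copies, whose levels are uncertain one by one. Tmem254c rose from 81.8 ± 11.8 to 163 ± 14.1 CPM (SD, n = 3 each, edgeR adjusted p = 0.0331), and all of its 50-base stretches (100%) occur in Tmem254a and Tmem254b. Summed, the 3 copies went from 151 ± 22.1 to 286 ± 20.4 CPM, a ratio of 1.89. Gm16867 had 0 counts in every B6 library and 130, 169 and 316 in Tac146, at least 167-fold higher against a limit of 3 counts over the strain. In the annotation Gm16867 overlaps Entpd4, and Gm27177 overlaps Entpd4b, each on the opposite strand. Gm27177, whose 50-base stretches all occur in Gm16867, had 2, 2 and 1 counts in B6 and 245, 89 and 170 in Tac146 (adjusted p = 0.00289). Summed, Entpd4, Entpd4b, Gm16867 and Gm27177 were at 54.3 ± 3.54 CPM in B6 and 87.2 ± 7.06 CPM in Tac146 (SD, n = 3 each), a ratio of 1.61.

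On chromosome 4, Gm13301 and Gm17167 overlap each other, with 0 counts in B6 and 218 and 124 counts over the Tac146 libraries. They were at least 59.1-fold and 33.6-fold higher against the same limit, and 86.2% and 62.2% of their 50-base stretches occur in other genes. Genes with no count in 1 strain did not always pass the test. Gm47283, chosen after its values were seen, had 221 counts over the B6 libraries and 0 in Tac146, at least 90.6-fold lower in Tac146, with an edgeR adjusted p of 0.104.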

How the data were processed

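RNA of 6 libraries of labial mucosa biopsies (3 Tac146, 3 B6) was used, made from polyadenylated RNA with a strand-marking kit, per the labels. The deposited values are expected counts (estimated counts per gene symbol), per the file headers. STAR, RSEM and GRCm38 were used, per the submitters' processing notes. For tool versions, annotation and use of strand, no entry is given in the sources used here. Reads of overlapping or antisense genes may therefore be shared between them. Names on several lines (107) were summed, 27 date-like names were kept, and values were rounded to whole counts. Libraries of a strain differed by more than counting noise (chi-square per degree of freedom 24.4 to 93.7), so no pair was counted as 1 library, which does not show that they came from separate animals.

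The quasi-likelihood test of edgeR 4.0.16 in R 4.3.3, with TMM factors and filterByExpr, was fitted to the 6 libraries with strain as the only term and 4 residual degrees of freedom. P-values were adjusted by Benjamini-Hochberg over all 16409 genes tested, with a threshold of 0.05. An exact permutation test of 3 against 3 cannot go below 0.1. CPM use TMM-scaled library sizes, and the SE is approximate. Counting intervals (95%) and limits (3 counts over a strain, unless per library is stated) cover counting error only. In data simulated from these libraries over 16409 genes, 67 genes were changed 1.5-fold, 67 were changed 2-fold and 66 were changed 4-fold. EdgeR found 23.9%, 76.1% and 92.4% of them and made 11 false calls. DESeq2 found 56.7%, 82.1% and 95.5% of them and made 44 false calls.

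The samples, the 41 gene lists, the tests and the rule for named genes were chosen with earlier results of these data known, so list counts are descriptions and no list was tested. The rule named Rag1, Rag2, Il2rg, Nnt, the tested T cell receptor complex, the 12 largest fold changes each way among non-overlapping called genes whose higher strain averaged at least 1 CPM (without predicted genes, pseudogenes, mitochondrial genes and variable segments), up to 12 narrow-spread genes, up to 4 called members of a list, and the 2 most abundant members of a list without a call. Results were recomputed with upper-quartile or median-ratio factors, DESeq2 1.42.0, no filter, 1 CPM or more in 3 libraries, all 9 libraries of the study, a replicate block and each library left out. Positions and shared 50-base stretches came from a GENCODE annotation and transcripts of GRCm38, and promoters from RefSeq.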

Additional observations from a re-analysis of the deposited data

How the results depend on the processing

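Called genes numbered 26 with median-ratio factors and 27 with upper-quartile factors, and no called gene changed direction under any alternative run. The count was 129 with DESeq2 (67 higher, 62 lower) and 71 with no filter (43 higher, 28 lower). It was 50 with all 9 libraries (32 higher, 18 lower) and 18 with 1 CPM or more in 3 libraries (11 higher, 7 lower). Called lymphocyte genes (4) became 10 with DESeq2 and 1 with the 1 CPM filter. Called epithelial genes (4) became 25, 19 and 15 with DESeq2, no filter and 9 libraries, narrow-spread genes (6) became 31, 11 and 10 and were 10 at a limit of 0.6, and called genes near Rag1 (1) became 3, 2 and 2. With each library left out, the ranges were 7 to 34 called, 3 to 22 higher, 3 to 12 lower, 1 to 4 lymphocyte, 0 to 9 epithelial, 4 to 12 narrow-spread and 1 to 1 near Rag1, with fewer samples in each fit. The cause of the other changes was not tested. Same-numbered replicates shared only a number, with correlations of 0.027 and 0.031 between deviations for the 2 numbers shared, and a replicate block left 1 residual degree of freedom. Replicate 1 was present in B6 only and replicate 4 in Tac146 only. The strain difference with the block thus rested on replicates 2 and 3 of each strain. In that fit 474 genes were called (205 higher, 269 lower), including 10 lymphocyte, 65 epithelial, 45 narrow-spread and 5 near Rag1. Krt71 and Tchh reversed to log2 fold changes of -0.44 and -0.44 (edgeR adjusted p = 0.0375 and 0.00402). With no block and without Tac146 replicate 4 they were at -0.41 and -0.29. Genes of a few counts per library, such as Cd3d, Trac and Rag1 in their lower strain, were limited by depth.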
